A study of Homo sapiens with 6 samples.

Results

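Epithelial to mesenchymal transition (EMT) is the program by which cells lose their junctions with neighbouring cells and become motile. It is driven by a small set of transcription factors. The zinc finger proteins of the SNAI and ZEB families bind E-box sequences in DNA and repress epithelial genes, above all CDH1, which encodes the junction protein E-cadherin. The TWIST proteins are basic helix-loop-helix factors that bind E-boxes as dimers with E proteins, and PRRX1 is a homeobox factor of mesenchymal cells. A switch from E-cadherin to N-cadherin, encoded by CDH2, and a high level of the intermediate filament vimentin, encoded by VIM, are the usual readouts of the mesenchymal state. Gliomas do not arise from epithelium, and these factors have been studied there for their link to invasion and to the mesenchymal subtype.

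The 10 genes SNAI1, SNAI2, TWIST1, TWIST2, ZEB1, ZEB2, PRRX1, CDH1, CDH2 and VIM were taken by name from a table of 61731 genes and loci. The table covered 6 libraries of total RNA from U87-MG, an established human glioblastoma cell line. The 3 libraries titled NC carry the label normal control (negative control in the study), and the 3 titled KD carry the label CHRM Knockdown. The series names the target as CHRM3, the M3 muscarinic acetylcholine receptor. The study used lentivirus and designed several KD sequences, and which of them these cells carried is not given in the sources used here. Nor is it given whether libraries with one label stem from different cultures. The p-values therefore measure the spread between these libraries only. CHRM3 itself was 0.02, 0.09 and 0.13 TPM in the NC libraries and 0.13, 0.01 and 0.02 TPM in the KD libraries. Its reduction was thus not detectable at these levels. The paper reports, from assays apart from these libraries, that CHRM3 was knocked down efficiently in U87-MG cells. Within the libraries the groups below rest on the labels.

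Levels are in TPM, the share of a library taken by a transcript per unit of its length, scaled to the same total in every library. Read depth cannot be recovered from this unit, and no counting error can be given. The number of genes above 0 TPM ranged from 22597 to 23311. Means are given ± SD over n = 3 libraries throughout. Differences were tested with limma on log2(TPM + 1) over the 13722 genes whose mean reached 1 TPM, and a gene was said to rise or fall in the KD libraries when its Benjamini-Hochberg adjusted p was under 0.05. Fold changes on this scale understate the change of low genes. Of the fixed glial and glioma markers, AQP4 and SOX10 were listed at 0 TPM in every library, SOX2 was at most 0.09 TPM and GFAP lay between 0.87 and 1.46 TPM, so the glial identity in the labels was carried by few of its defining markers. The summed level of the 4 epithelial markers, CDH1 among them, was 0.66 to 1.17 TPM in the NC libraries and 1.13 to 1.64 TPM in the KD libraries. Most of that sum was EPCAM, at 0.63 to 1.14 TPM in NC and 1.06 to 1.44 TPM in KD. EPCAM overlapped between the groups and did not pass the test (limma adjusted p = 0.16). Of the 8 glial markers, 3 were tested, of which NES rose, CD44 fell and GFAP did not pass the test. Summed levels of all 8, nearly all of it CD44, ranged from 580.2 to 624.4 TPM in NC and from 463.7 to 487.5 TPM in KD. For the 6 leukocyte markers these ranges were 254.6 to 259.2 TPM and 179.5 to 186.5 TPM, where CD68, the bulk of the sum, fell and CSF1R rose, TYROBP was at 0 TPM in every library and PTPRC was at most 0.12 TPM. For the 4 endothelial markers they were 3.37 to 3.58 TPM and 1.43 to 1.51 TPM, where KDR fell and PECAM1 and CDH5 were at most 0.07 TPM. The part of these markers in the results was not tested. In RNA from whole cultures of this cell line, fewer cells with a transcript and less of it per cell cannot be told apart.

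Of the 10 genes, 9 reached the limit for testing, and CDH1 did not. SNAI2, TWIST1, ZEB1, PRRX1 and VIM rose in the KD libraries, TWIST2 and ZEB2 fell, and SNAI1 and CDH2 did not pass the test. Among all tested genes, 12.1% rose and 24.0% fell, against 5 and 2 of these 9, and 36.1% passed in either direction, against 7. The background split depended on the scaling. With median-of-ratios scaling 2310 of all tested genes rose and 2233 fell, against 5 and 1 of these 9. The 10 genes were chosen with earlier results of these data known, so the contrast is not a test of them. None of the 9 passed with a log2 fold change of 1 or more in size, as 1.87% of all tested genes did. The median log2 fold change of the 9 genes was 0.15, and that of all tested genes was -0.06. Without regard to sign the medians were 0.17 and 0.18. The largest log2 fold changes among the 9 were those of the TWIST genes, which moved in opposite directions. The 7 tested genes that passed were also the ones, of the 9, whose 3 KD values lay wholly on one side of the 3 NC values. That held for 17.4% of all tested genes in the upward and 32.8% in the downward direction, 50.2% together.

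**Figure D1:**
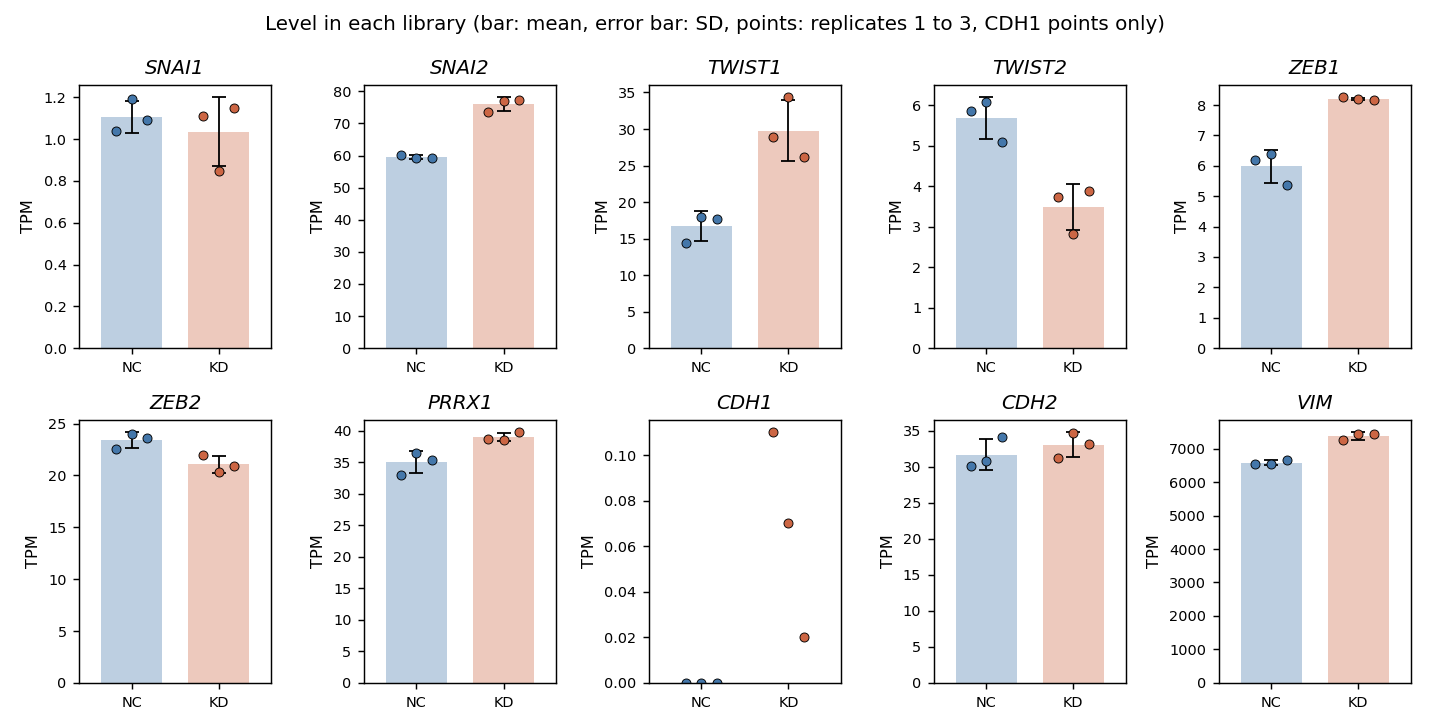
TPM of the 10 genes in the 3 NC (blue) and 3 KD (orange) libraries, each panel on its own axis from 0, with bars for the mean and error bars for the SD of 3 libraries and points alone for CDH1. The points of SNAI2, TWIST1, ZEB1, PRRX1 and VIM lie higher in KD, those of TWIST2 and ZEB2 lower, and those of SNAI1 and CDH2 overlap.

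VIM (ENSG00000026025), on chromosome 10 (GRCh38, 17228259 to 17237593, plus strand), was by far the most abundant of the 10 genes. Its level was 6531.16, 6527.71 and 6663.16 TPM in NC replicates 1, 2 and 3, and 7243.85, 7432.56 and 7451.18 TPM in KD replicates 1, 2 and 3. Every KD library was thus above every NC library, and VIM ranked between the 10th and 12th most abundant of all genes and loci in each of the 6 libraries. It took 0.653 to 0.666% of all TPM in NC and 0.724 to 0.745% in KD. The log2 fold change was 0.17 (95% interval 0.13 to 0.20, limma adjusted p = 0.000416), or a ratio of 1.12 between the mean levels. The call was lost in 1 of 16 alternative fits, that with quantile normalization, which brought the log2 fold change to 0.06 (limma adjusted p = 0.0615). Median-of-ratios scaling brought it to 0.24 (limma adjusted p = 7.79e-05).

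The order of the other genes in the NC libraries by mean TPM was SNAI2, PRRX1, CDH2, ZEB2, TWIST1, ZEB1, TWIST2, SNAI1 and CDH1. The ranges of neighbours in that order overlapped for PRRX1 and CDH2, and for ZEB1 and TWIST2. In the KD libraries TWIST1 stood above ZEB2, with a range that overlapped that of CDH2, and ZEB1 stood clear above TWIST2. The most abundant factor was SNAI2 in both groups.

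SNAI2 encodes SLUG and SNAI1 encodes SNAIL, zinc finger repressors of one family. SNAI2 (ENSG00000019549), on chromosome 8, was 60.23, 59.12 and 59.29 TPM in the NC libraries and 73.67, 77.13 and 77.32 TPM in the KD libraries. The groups were far apart relative to their spread, with a coefficient of variation of 1.0% in NC and 2.7% in KD. Its log2 fold change was 0.35 (95% interval 0.28 to 0.42, limma adjusted p = 0.000308), a ratio of 1.28 between the means, and the call held in all 16 alternative fits. SNAI1 (ENSG00000124216), on chromosome 20 (49982999 to 49988886, plus strand), was 1.04, 1.19 and 1.09 TPM in NC and 1.11, 0.85 and 1.15 TPM in KD. These values overlapped, with a log2 fold change of -0.05 and a 95% interval from -0.37 to 0.27 (limma adjusted p = 0.80). SNAI2 was 49.7 to 57.9 times as abundant as SNAI1 in the NC libraries and 66.4 to 90.7 times in the KD libraries, in TPM.

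TWIST1 showed the largest log2 fold change of TPM + 1 among the 9 tested genes. It is the TWIST member best known for driving EMT in carcinoma (ENSG00000122691) and lies on chromosome 7 (19020991 to 19117672, minus strand). Its level was 14.33, 18.02 and 17.70 TPM in NC and 28.84, 34.32 and 26.13 TPM in KD. The lowest KD library exceeded the highest NC library by a wide margin, although the KD libraries spread by 14.0% (coefficient of variation) and KD replicate 2 was the highest. The mean rose from 16.7 ± 2.04 to 29.8 ± 4.17 TPM, a ratio of 1.78 and a log2 fold change of 0.80 (95% interval 0.50 to 1.09, limma adjusted p = 0.00331).

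TWIST2 (ENSG00000233608) moved the other way. This paralog, also known as DERMO1, lies on chromosome 2 (238848032 to 238910543, plus strand). It was 5.86, 6.07 and 5.10 TPM in NC and 3.73, 2.82 and 3.87 TPM in KD, so that all KD libraries were below all NC libraries. The mean fell from 5.68 ± 0.51 to 3.47 ± 0.57 TPM, which is -0.58 as a log2 fold change (95% interval -0.87 to -0.30, limma adjusted p = 0.0105). Neither TWIST gene lost its call in any alternative fit that tested it, and with a limit of 5 TPM TWIST2 was no longer tested.

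Within a library TWIST2 was 0.409, 0.337 and 0.288 of the TWIST1 level in NC and 0.129, 0.0822 and 0.148 of it in KD. The KD ratios were all below the NC ratios. On the log2 scale of TPM + 1 the ratio differed by -1.38 between the groups (exact two-sided permutation p = 0.10, the smallest that 3 libraries against 3 allow, and 0.133 after adjustment over the 4 ratios compared). The summed level of both genes was 20.19, 24.09 and 22.80 TPM in NC and 32.57, 37.14 and 30.00 TPM in KD. The KD library with the most TWIST1, replicate 2, also had the least TWIST2. In the NC libraries the order differed, and NC replicate 2 had the most of both genes (18.02 and 6.07 TPM). The paralogs share no run of 31 bases in their annotated transcripts, and their longest common run is 23 bases.

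The ZEB genes encode large zinc finger and homeodomain repressors. ZEB1 (ENSG00000148516), on chromosome 10 (31318495 to 31529814, plus strand), was 6.19, 6.38 and 5.37 TPM in NC and 8.25, 8.20 and 8.18 TPM in KD. All KD libraries were above all NC libraries, and the coefficient of variation was 0.44% in KD and 9.0% in NC. The log2 fold change was 0.40 (95% interval 0.23 to 0.58, limma adjusted p = 0.0063), a ratio of 1.37 between the means, and the call held in all 16 alternative fits. ZEB2 (ENSG00000169554), on chromosome 2 (144364364 to 144524583, minus strand), was 22.57, 24.03 and 23.64 TPM in NC and 21.95, 20.37 and 20.92 TPM in KD. The groups did not overlap, but the gap between the lowest NC and the highest KD library was small.

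The log2 fold change of ZEB2 was -0.15 (95% interval -0.25 to -0.04, limma adjusted p = 0.0464). It passed the threshold narrowly and was lost in 11 of 16 alternative fits, among them median-of-ratios scaling (log2 fold change -0.08, adjusted p = 0.245) and, with a single library left out, every fit (adjusted p of 0.0563 to 0.129) except the one without KD replicate 1 (0.043). ZEB2 was 3.65, 3.77 and 4.40 times as abundant as ZEB1 in the NC libraries and 2.66, 2.48 and 2.56 times in the KD libraries, in TPM. These ratios did not overlap between the groups, and they differed by -0.55 on the log2 scale of TPM + 1 (exact two-sided permutation p = 0.10, adjusted 0.133). The summed level of ZEB1 and ZEB2 was 29.4 ± 0.89 TPM in NC and 29.3 ± 0.83 TPM in KD, which overlapped (exact two-sided permutation p = 0.80). That sum was compared in TPM only and depends on the scaling. With median-of-ratios scaling the log2 fold changes were 0.465 for ZEB1 and -0.077 for ZEB2, against 0.403 and -0.145 in TPM. ZEB2 remained the more abundant of the pair in every library. The longest run of bases shared by their annotated transcripts is 27.

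ZEB1 is transcribed next to an antisense gene, ZEB1-AS1, whose annotated exons share 366 bases with those of ZEB1 on the opposite strand. ZEB1-AS1 was 2.28, 1.19 and 2.36 TPM in NC and 4.13, 3 and 6.16 TPM in KD, or 0.87 as a log2 fold change (limma adjusted p = 0.0415). All KD libraries were above all NC libraries, but the KD values spread widely. The call was lost in 8 of 15 alternative fits, among them those without any single library other than KD replicate 2 (adjusted p up to 0.113). Whether the authors' counting used strand is not given in the sources used here, so reads from the shared bases cannot be assigned to either gene with certainty. ZEB2-AS1, which shares 1299 exon bases with ZEB2, was between 0.15 and 0.66 TPM in all libraries. VIM-AS1, which shares 641 exon bases with VIM, was 6.17 ± 0.98 TPM in NC and 5.49 ± 0.63 TPM in KD (limma adjusted p = 0.424). The same limit holds for the bases shared by these pairs. Antisense genes without a value here also overlap exons of TWIST1 (141 bases), CDH2 (136), CDH1 (347) and VIM (619).

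The E-box CACCTG, which reads CAGGTG on the other strand, is the sequence bound by the SNAI and ZEB proteins. The promoter windows of RefSeq (GRCh38.p14), from 250 bases before to 50 bases after an annotated start, were searched for it on both strands. Windows were found for 6 of the 10 genes, PRRX1, ZEB2, TWIST2, VIM, ZEB1 and CDH2, 13 windows in all. A match was found for 1 of these 6 genes, ZEB1, in 2 of its 7 windows. Of all 27305 genes with windows, 24.1% had a match, as did 20.6% of all 35116 windows and 17.7% of the 14413 windows of tested genes. The windows of PRRX1 and VIM, which also rose, held none. The matches of ZEB1 are shown as the only ones in the 13 windows, with the E-box in capitals and 10 bases on each side where the window allows.
Site at chr10:31318350-31318375, plus strand: gaggtgacagCAGGTGagggccgggt
Site at chr10:31318966-31318989, plus strand: ccccaccaCACCTGaggaaaactt
Site at chr10:31319121-31319146, plus strand: tgtcgtaaacCAGGTGcggtggggag
Site at chr10:31319239-31319264, plus strand: cggatggcccCAGGTGtaagcgcaga
The first lies in annotated exons of ZEB1-AS1 only, the second in exons of both genes, and the last pair in exons of ZEB1. A match describes the letters of the window and does not show that a factor binds there. No match in the other windows says only that these letters are not in them.

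PRRX1 (ENSG00000116132), on chromosome 1 (170662728 to 170739419, plus strand), was 33.01, 36.44 and 35.40 TPM in NC and 38.72, 38.50 and 39.73 TPM in KD. The KD libraries were above the NC libraries by a small gap. The log2 fold change was 0.15 (95% interval 0.05 to 0.26, limma adjusted p = 0.0344), a ratio of 1.12 between the means. The call was lost in 8 of 16 alternative fits. Leaving out any single library ended it (adjusted p of 0.0708 to 0.0963), except NC replicate 2 (0.0342).

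The level of N-cadherin RNA did not pass the test, and E-cadherin RNA was near 0 TPM in both groups. CDH2 (ENSG00000170558), on chromosome 18 (27950966 to 28177446, minus strand), was 30.10, 30.79 and 34.06 TPM in NC and 31.25, 34.71 and 33.13 TPM in KD. The groups overlapped, and the log2 fold change of 0.06 had a 95% interval from -0.09 to 0.21 (limma adjusted p = 0.481). CDH1 (ENSG00000039068), on chromosome 16 (68737225 to 68835548, plus strand), was listed at 0 TPM in all 3 NC libraries and at 0.11, 0.07 and 0.02 TPM in KD replicates 1, 2 and 3. The difference gave an exact two-sided permutation p of 0.10, the smallest that the design allows, and no fold is given against a group at 0.

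**Figure D2:**
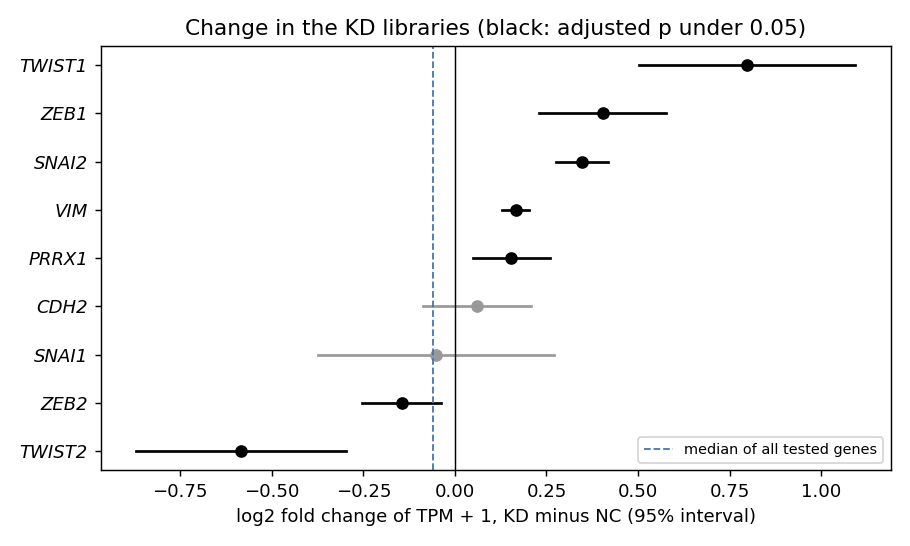
Log2 fold change of TPM + 1 (KD minus NC) of the 9 tested genes with its 95% interval from limma, black where the adjusted p was under 0.05 and grey otherwise, and a dashed line at the median of all tested genes (-0.06). TWIST1 (0.80) and TWIST2 (-0.58) lie at the ends, and the intervals of CDH2 and SNAI1 include 0.

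The other genes of the program were taken from 8 lists. Of 18 other EMT-linked transcription factors and corepressors, 10 were tested, of which 4 rose and 1 fell. FOXC1 and FOXC2, forkhead factors of mesenchyme, rose from 2.19 ± 0.19 to 3.92 ± 0.06 TPM and from 4.82 ± 0.14 to 7.55 ± 0.77 TPM. Their limma adjusted p were 0.0021 and 0.00277. TCF12, an E protein that pairs with TWIST1, rose by 0.29 on the log2 scale (limma adjusted p = 0.0296). That call was lost in 5 of 16 alternative fits. These included the fits without any 1 of the NC libraries or KD replicate 1 (adjusted p up to 0.0931). The E proteins TCF3 and TCF4 did not pass the test. The corepressors of the ZEB proteins diverged. CTBP1, the most abundant gene of the list, rose by 0.11 on the log2 scale and CTBP2 fell by 0.18, with limma adjusted p of 0.0268 and 0.0134. The CTBP1 call was lost in 6 of 16 alternative fits. These included the fits without NC replicate 1 or 2 or KD replicate 1 or 2 (adjusted p up to 0.0722). The CTBP2 call was lost with median-of-ratios scaling (0.0632) and quantile normalization (0.071).

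Of 25 epithelial genes, 19 were below the limit for testing, and OVOL1, OVOL2 and TJP3 were listed at 0 TPM in every library. Among the 6 tested genes only KRT8 passed the test. KRT8, a keratin of simple epithelia, was 2.50, 1.79 and 2.52 TPM in NC and 6.77, 7.59 and 5.83 TPM in KD, or 1.24 as a log2 fold change (limma adjusted p = 0.000766). Its filament partner KRT18 stayed below the limit, at 0.19 to 0.42 TPM in NC and 0.25 to 0.70 TPM in KD. TJP1, the most abundant of the list, encodes the junction scaffold ZO-1 and was 17.8 ± 1.21 TPM in NC and 19.3 ± 1.43 TPM in KD (limma adjusted p = 0.256).

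Of 21 other cadherins, 16 were below the limit, 2 of the 5 tested genes rose and 1 fell. CDH24, a classical type II cadherin, rose from 3.16 ± 0.16 to 4.76 ± 0.42 TPM (limma adjusted p = 0.00675). CDH18 rose by a log2 fold change of 0.58 and CDH13 fell by 0.18 on the log2 scale, with limma adjusted p of 0.0281 and 0.0429. CDH13, a cadherin anchored in the membrane by a lipid, was the most abundant of the cadherins examined here. It was at 109.8 ± 7.77 TPM in NC and 96.6 ± 3.49 TPM in KD, and thus above CDH2 in every library. The CDH18 call was lost in 6 of 15 alternative fits. These included the fits without NC replicate 1 or 3 or KD replicate 2 or 3 (adjusted p up to 0.0657 there). The CDH13 call was lost in 11 of 16 alternative fits, among them those without any single library other than NC replicate 2 (adjusted p up to 0.128). Of 11 catenins and cadherin-linked proteins, 6 were tested. VCL, which encodes vinculin, and AFDN rose by log2 fold changes of 0.20 and 0.19, and CTNNB1, which encodes beta-catenin and was the most abundant of the list, fell by 0.09 on the log2 scale (limma adjusted p of 0.00486, 0.0225 and 0.0265). The AFDN and CTNNB1 calls were lost in 5 and 8 of 16 alternative fits. Both were lost without NC replicate 2 or 3 or KD replicate 2 or 3 (adjusted p up to 0.0725 and 0.0771). With median-of-ratios scaling CTNNB1 was at -0.02 (adjusted p = 0.506).

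Of the other intermediate filament genes, 5 of 12 were tested, of which 3 rose and 1 fell. LMNA, the A-type lamin of the nuclear envelope and the most abundant of them, rose from 466.1 ± 11.7 to 660.6 ± 9.83 TPM, or 0.50 as a log2 fold change (limma adjusted p = 2.95e-05). The B-type lamins moved apart, LMNB1 by 0.35 and LMNB2 by -0.35 on the log2 scale (limma adjusted p of 0.000198 and 0.000613). NES, which encodes nestin, a filament protein of neural stem cells that assembles with vimentin, rose from 2.25 ± 0.28 to 3.58 ± 0.40 TPM (limma adjusted p = 0.0151). The NES call was lost in 1 of 15 alternative fits, that with no limit on low values (limma adjusted p = 0.0535).

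Of the 11 genes for the turnover of SNAIL, TWIST and ZEB proteins, all were tested, and 1 rose and 1 fell. PAK1, a kinase that phosphorylates SNAIL, rose by 0.23 on the log2 scale (limma adjusted p = 0.011). FBXL5, a subunit of a ubiquitin ligase, fell by 0.24 on the log2 scale (limma adjusted p = 0.0221). That call was lost in 7 of 16 alternative fits. Among these were median-of-ratios scaling (limma adjusted p = 0.0671) and quantile normalization (0.0657). The fits without NC replicate 1 or 2 or KD replicate 1 or 3 also lost it (adjusted p up to 0.076). GSK3B, the kinase that marks SNAIL for degradation, was 27.1 ± 1.69 TPM in NC and 34.6 ± 5.51 TPM in KD (limma adjusted p = 0.0568), and it passed in 5 of 16 alternative fits, among them median-of-ratios scaling (0.0337) and the fit without KD replicate 1 (0.0488).

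The mesenchymal marker genes split. Of 14, 13 were tested, 7 rose and 4 fell, with a median log2 fold change of 0.23. The largest rises were those of THBS1 (0.997 ± 0.00577 to 4.92 ± 0.48 TPM), ACTA2 (57.6 ± 2.38 to 158.2 ± 4.39 TPM), TAGLN (1.36 ± 0.31 to 4.36 ± 0.76 TPM) and PDGFRB (5.44 ± 0.12 to 10.1 ± 1.74 TPM). ACTA2 and TAGLN encode contractile proteins of smooth muscle and myofibroblasts. The log2 fold changes of these genes were 1.57, 1.44, 1.18 and 0.78, with limma adjusted p of 9.73e-05, 3.8e-06, 0.00166 and 0.00271. FN1, which encodes fibronectin and was the most abundant of the list, fell from 987.4 ± 12.4 to 663.5 ± 11.7 TPM, or -0.57 as a log2 fold change (limma adjusted p = 7.41e-06). CD44, TNC and FAP were the other genes of the list that fell, and THY1 was listed at 0 TPM in all NC libraries and at 0.32 to 1.33 TPM in KD. Fibroblast and pericyte markers moved in both directions. PDGFRB and COL1A1 rose and DCN and LUM fell. DCN, which encodes the matrix proteoglycan decorin, went from 61.2 to 9.09 TPM in the mean, or -2.64 as a log2 fold change (limma adjusted p = 3.05e-05). The summed level of the 4 genes, most of it COL1A1, was 395.7 to 412.3 TPM in NC and 379.3 to 391.0 TPM in KD. The part of these 4 markers in the results was not tested.

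Over the 8 lists together, 115 genes were examined and 58 were tested, of which 21 rose and 9 fell, with a median log2 fold change of 0.00. Among all tested genes the split ran the other way, with 1660 higher and 3295 lower (66.5% lower). That background split depended on the scaling, since median-of-ratios scaling gave 2310 higher and 2233 lower (49.2% lower). With that scaling 25 of the list genes rose and 5 fell. The lists were chosen with earlier results of these data known, so the contrast is not a test of the lists.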

How the data were processed

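RNA of U87-MG cells was sequenced as read pairs. Each gene's TPM in each library, rounded to 2 decimals, was deposited by the authors in 1 table. The submitters' processing notes name fastp, RSEM and GRCh38.p13, without roles or versions. The aligner, annotation and strand setting are not given in the sources used here. The labels name a SMARTer kit and the paper a TruSeq kit. Of 61541 Ensembl identifiers, 61369 had a symbol. Columns were assigned by title, and no 2 libraries held identical values.

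The test was limma 3.58.1 (R 4.3.3, trend option of eBayes, group as the only term) on log2(TPM + 1), checked on simulated data. Adjustment ran over the 13722 genes whose mean reached 1 TPM. TPM keeps no depth, so no count test was run. CDH1 and the ratios of paralogs were compared by exact permutation tests (scipy 1.17.1). Gene coordinates and transcripts are from GENCODE 29 (GRCh38), promoter sequences from RefSeq (GRCh38.p14). The members and lists were chosen with earlier results of these data known. Named genes were the 10 members, CHRM3, from each list the most abundant gene and up to 4 genes past the threshold with the largest change, and the 3 genes nearest to the member that changed most. Genes named beyond this rule were chosen after their values were seen. Alternatives varied pseudocount, limit on low values, scaling, trend, replicate block, fold limit and the libraries included.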

Additional observations from a re-analysis of the deposited data

How the results depend on the processing

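SNAI2, TWIST1, TWIST2 and ZEB1 kept their direction and their call in every alternative fit that tested them. Of the 10 genes, 2 fell, and this count was 1 without a limit on levels, under limits of 0.1 and 5 TPM, with median-of-ratios scaling, quantile normalization, no trend and the replicate block, since ZEB2 (or, with the limit of 5 TPM, TWIST2) no longer passed or was not tested. Leaving out single libraries gave 1 to 2. The count of those that rose, 5, was 4 to 5 in all of these. Requiring an absolute log2 fold change of 1 made both counts 0, against 164 lower and 92 higher of all genes, and the list genes were 0 lower and 4 higher. The list genes that fell, 9, were 5 with median-of-ratios scaling and with quantile normalization, which moved the median log2 fold change of all tested genes from -0.06 to 0.00, and 6 to 8 without one library. The log2 fold change of SNAI1 went from -0.051 to 0.016 without KD replicate 2, and was -0.092 to 0.016 over the fits without one library. The CDH2 to CDH1 ratio difference, -0.032, was -0.638 with a pseudocount of 0.1, -0.116 with a pseudocount of 0.5 and 0.035 with median-of-ratios scaling, and -0.066 to 0.035 over the comparisons without one library.

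With the replicate block, 1 of the 10 genes fell and 4 rose, and PRRX1 (adjusted p = 0.0643) and ZEB2 (0.119) lost their calls. The numbers were not shown to pair the libraries, since the correlations of same-numbered deviations were -0.02, 0.03 and 0.03. Levels as low as those of CDH1, at most 0.11 TPM, have little precision, and the depth is unknown.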

Other observations

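The 3 tested genes whose centred log2(TPM + 1) values over the 6 libraries lay nearest to those of TWIST1, the gene with the largest log2 fold change among the 9 tested, were CUBN, RGS4 and CAMK1D, at Euclidean distances of 0.215, 0.226 and 0.243. CUBN, which encodes the endocytic receptor cubilin, was 9.26, 12.82 and 11.14 TPM in NC and 17.57, 20.52 and 15.70 TPM in KD. RGS4, a regulator of G protein signalling, was 5.31, 7.47 and 7.16 TPM in NC and 11.21, 12.92 and 11.97 TPM in KD. CAMK1D, a calcium and calmodulin-dependent kinase, was 1.31, 1.93 and 1.45 TPM in NC and 3.10, 3.57 and 2.59 TPM in KD. In all 3 genes NC replicate 1 was the lowest of the libraries and KD replicate 2 the highest, as for TWIST1. With 6 libraries in 2 groups, this likeness is a description of these values only.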
